A study of Mus musculus with 14 samples.

Results

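The genes described here are 30 genes of cholesterol and fatty acid synthesis, and the data are their transcript levels in mouse embryonic fibroblasts (MEFs) that carry different forms of the NF-κB subunit p65. The genes were chosen by name from the known pathway, with earlier results of these data already known. A gene's probes were those listed under its name on the array. All 30 were among the 27962 gene names on the array, with 58 probes among them, and all 30 passed the filter on dim probes. A gene has 1 value per array, from its brightest probe. A level below is the log2 signal of that probe minus the 75th percentile of its array, so that 0 is the level of the 75th percentile and a difference of 1 between groups is a doubling. Levels of different genes cannot be set against each other, because each probe binds with its own efficiency.

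The cells were *p65*(-/-) NIH 3T3 MEFs stably complemented through a lentivirus, and all groups therefore shared the loss of endogenous p65. The vector supplied myc-tagged wild type p65, the acetylation-deficient mutants K314/315R, in which 2 lysines are replaced by arginines, or KTR, in which the same 2 and 1 more are replaced, or no p65 (the empty vector, pTV). Pools of infected cells were used, starved overnight and then treated with 30 ng/ml TNFα for 3 h. Wild type cells were also measured untreated (0 h). Each group had 3 arrays, except K314/315R with 2, and each array was an RNA isolation of its own.

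Cholesterol is built from acetyl-CoA through mevalonate and squalene, and the ring system made from squalene is then trimmed and reduced in many steps to cholesterol. Fatty acid synthesis starts from the same acetyl-CoA. Genes of both routes are switched on by the SREBP transcription factors, which the cell holds in the endoplasmic reticulum while sterols are plentiful and releases when sterols fall. Fibroblasts express the whole route and balance it against cholesterol taken up from serum.

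Promoter windows from RefSeq (build GRCm38.p6, 250 bases before to 50 bases after a transcription start) were at hand for 23 of the 30 genes, with 28 windows in all. No window was listed for *Fdps*, *Fdft1*, *Sqle*, *Stard4*, *Scd1*, *Scd2* or *Fads1*. *Sc4mol* was found under its current symbol, *Msmo1*. A CCAAT box (CCAAT on either strand), which binds NF-Y, a partner of SREBP, was found in 20 of the 28 windows (71.4%) and in 37.4% of the 32851 windows of all genes. A GC box (GGGCGG, either strand), the site of Sp1, was found in 75% of the windows of the 30 genes and in 35.7% of all windows. The sterol regulatory element, searched as TCACNCCAC, was found in 1 window (*Hmgcs1*) and in 1.24% of all. Its shorter form CACCCCAC, which overlaps the first motif where N is C, was found in 2 windows (*Acat2* and *Hmgcs1*) and in 2.87% of all. The κB consensus was found in the windows of *Ebp*, *Fads2*, *Mvk* and *Srebf1*, which is 14.3% of the 28 windows, and in 4.51% of all. A match is a run of letters and not a measured binding site. Windows are shown for *Tm7sf2*, *Ebp* and *Hsd17b7*, which differed between groups below, and for *Hmgcs1*, the window with the sterol regulatory element; apart from *Tm7sf2*, these were picked after the values had been seen. They lie at chr19:6067801-6068100 (minus strand), chrX:8193463-8193762 (minus strand), chr1:169969156-169969455 (minus strand) and chr13:119690101-119690400 (plus strand). Capitals mark CCAAT boxes, the κB consensus and the sterol regulatory element, and each sequence runs 5′ to 3′ along the gene.
Tm7sf2: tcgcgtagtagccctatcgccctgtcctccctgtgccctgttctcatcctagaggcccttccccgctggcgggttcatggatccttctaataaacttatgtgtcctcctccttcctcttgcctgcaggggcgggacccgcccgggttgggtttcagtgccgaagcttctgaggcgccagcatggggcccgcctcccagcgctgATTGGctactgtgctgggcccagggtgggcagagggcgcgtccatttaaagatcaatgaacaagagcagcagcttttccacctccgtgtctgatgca
Ebp: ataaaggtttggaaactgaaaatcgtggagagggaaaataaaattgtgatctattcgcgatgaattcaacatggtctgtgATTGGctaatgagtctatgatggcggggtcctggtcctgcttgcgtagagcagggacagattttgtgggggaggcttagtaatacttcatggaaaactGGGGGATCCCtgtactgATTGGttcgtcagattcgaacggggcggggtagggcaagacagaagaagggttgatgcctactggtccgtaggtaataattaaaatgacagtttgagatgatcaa
Hsd17b7: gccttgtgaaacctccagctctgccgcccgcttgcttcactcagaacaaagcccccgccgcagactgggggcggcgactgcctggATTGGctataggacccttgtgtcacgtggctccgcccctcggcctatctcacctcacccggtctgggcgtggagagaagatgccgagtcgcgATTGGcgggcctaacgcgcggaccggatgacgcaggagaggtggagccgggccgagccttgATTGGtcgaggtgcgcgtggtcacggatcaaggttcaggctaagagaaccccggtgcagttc
Hmgcs1: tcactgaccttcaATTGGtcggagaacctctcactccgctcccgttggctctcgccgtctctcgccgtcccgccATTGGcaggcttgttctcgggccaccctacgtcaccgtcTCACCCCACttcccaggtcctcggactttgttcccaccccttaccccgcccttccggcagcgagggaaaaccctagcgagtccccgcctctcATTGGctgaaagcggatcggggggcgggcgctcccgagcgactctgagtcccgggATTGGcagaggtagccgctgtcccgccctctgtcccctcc
With the first transcribed base counted as 0, the CCAAT box of *Tm7sf2* began at position -47, those of *Ebp* at -170 and -55, and those of *Hsd17b7* at -165, -73 and -12, each on the strand opposite to the gene. The κB consensus of *Ebp* began at -72, and the sterol regulatory element of *Hmgcs1* began at -137.

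Several facts of the whole experiment bear on these genes. Wild type at both times, KTR and pTV were spread over slides 1 to 3, with 1 array of each group on every slide. Replicates of a group were isolated on different days, and no source read here says which arrays shared a day. Both K314/315R arrays were on slide 4, alone, and were read with Feature Extraction release 9.1.3.1 in place of 9.1.1.1. Their spike-in controls (median log2 signal minus the 75th percentile) were at 1.00 and 1.44, against -0.45 to 0.24 on the other arrays. Slide, software release, spike-in level and mutant cannot be told apart. *Rela*, which encodes p65, was at 1.52, 1.52 and 1.54 on the wild type arrays at 3 h, at 1.39, 1.54 and 0.79 in KTR, at 1.54 and 1.87 in K314/315R and at 1.00, 1.19 and 1.34 in pTV. On the untreated wild type arrays, whose cells also carried wild type p65, *Rela* was lower than on pTV replicates 2 and 3. It was at 0.97 and 1.03 on untreated replicates 2 and 3, so pTV was not the group with the lowest levels. In no comparison did *Rela* pass the threshold (adjusted p in limma between 0.0589 and 0.858). The position of its probe relative to the deletion and to the introduced p65 is unknown here, and it was not taken as a check of the labels. Of 12 fibroblast markers, 11 were well above background on all wild type arrays and *Lum* on none. Their summed level (linear signal in units of the 75th percentile) was 1146 to 1314 in wild type at 3 h and 1069 to 1281 in pTV. The brightest genes weigh most in this sum, and *S100a4* (log2 level 8.52 to 9.04) was saturated on 7 arrays. The sum therefore says little about the dimmer markers. Within the list *Pdgfra*, *Pdgfrb* and *Dcn* were called lower and *Thy1* higher in pTV than in each of the p65 groups at 3 h. These made 4 of 11 tested genes. Of all tested probes 14.8%, 15.2% and 26% were called in wild type, KTR and K314/315R over pTV. *Pdgfrb* had means of 5.13 in wild type, 5.20 in KTR, 5.07 in K314/315R and 3.14 in pTV. The summed level of 9 adipocyte markers was lower in pTV (1.57 to 1.97, against 2.32 to 3.10 in wild type, 2.82 to 3.40 in KTR and 3.98 to 3.99 in K314/315R), with *Fabp4* lower, *Pparg* higher and *Adipoq* not well above background on any array. That of 6 epithelial and endothelial markers was higher in pTV (0.336 to 0.398, against 0.188 to 0.234, 0.246 to 0.335 and 0.250 to 0.285), with *Krt18* well above background on all 3 pTV arrays and *Cdh1*, *Pecam1* and *Cdh5* on no array. That of 7 macrophage and leukocyte markers was 0.381 to 0.776 in pTV, against 0.320 to 0.364, 0.370 to 0.591 and 0.271 to 0.290. Of these markers, 4 were tested and 0 called against pTV (14.8% to 26% of all probes). *Ptprc*, *Itgam* and *Emr1* were well above background on no array. The summed level of 12 proliferation genes was 116 to 143 in pTV, above wild type (87.7 to 105) and K314/315R (72.6 to 110). KTR overlapped with pTV (77.6 to 132), where the 77.6 is replicate 3, which lacked values for *Cdc2a* and *Mcm5* and so sums fewer genes. These shifts run beside the differences from pTV below, and their part in them was not tested. These marker genes were named after their values had been seen.

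Few of the 30 genes were called between groups in the fit without a block. In simulated data, 133 to 150 of 200 added changes of 1 on the log2 scale were recovered per comparison. A gene that was not called may therefore still differ. A gene was called at an adjusted p under 0.05 (limma, all 14 arrays in 1 fit, Benjamini-Hochberg over all tested probes). Over 3 h of TNFα in wild type cells, 0 of 30 were called (4.68% of all tested probes were), and 4 had an unadjusted p under 0.05, all lower (8.89% of all probes). Between wild type and pTV at 3 h, 1 of 30 was called, *Tm7sf2*, against 14.8% of all tested probes. Between KTR and wild type, 0 of 30 were called (0.235% of all probes), with 2 at an unadjusted p under 0.05, both higher (4.99% of all probes). Between K314/315R and wild type, 2 of 30 were called, *Hsd17b7* and *Stard4*, both lower (1.76% of all probes were called lower and 2.23% in either direction). Both were also past 1.8-fold, the fold limit of the study, as were 1.03% of all probes in that direction. The same pair was lower in K314/315R than in pTV, where *Tm7sf2* and *Ebp* were higher, which made 4 of 30 against 26% of all probes. Between KTR and pTV, 0 of 30 were called (15.2% of all probes), with 5 at an unadjusted p under 0.05, all higher (15.9% of all probes). In none of the 3 comparisons with pTV were the 30 genes called more often than all probes. Comparisons that share wild type or pTV arrays are not independent.

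**Figure D1:**
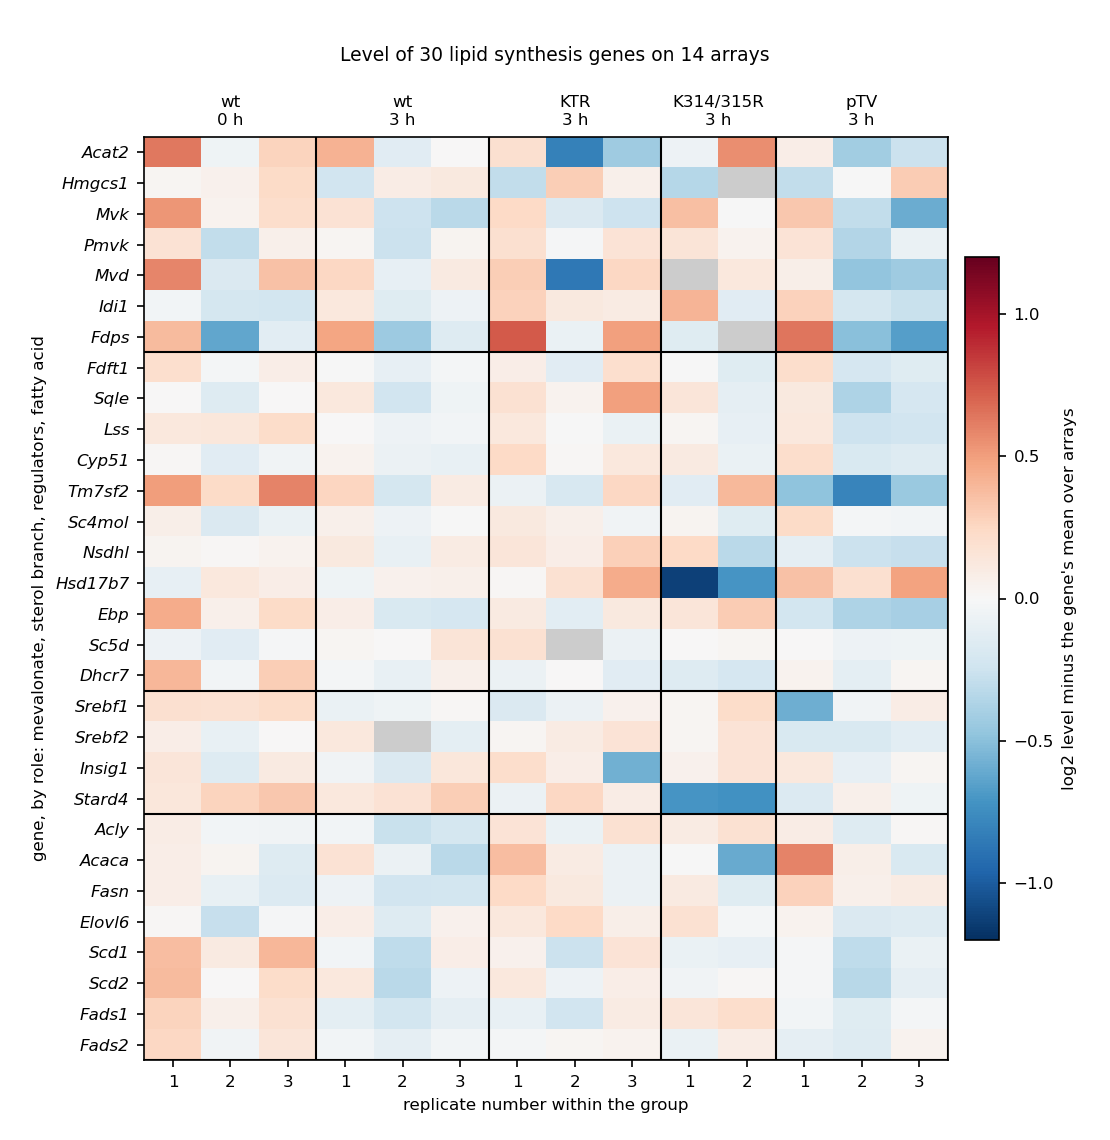
Level of each of the 30 genes (rows, ordered by role) on each of the 14 arrays (columns, by group and replicate number), as log2 level minus the gene's mean over arrays; grey cells had no value. The dark cells of *Hsd17b7* and *Stard4* stand out in both K314/315R arrays, *Tm7sf2* is low on the 3 pTV arrays, and in the mevalonate block the first replicate is often the highest of its group.

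Since arrays with the same number on slides 1 to 3 shared a slide, the number was also fitted as a block, which raised the counts. With the block, 3 of 30 were lower after TNFα (*Mvk*, *Scd1* and *Fads1*; 5.29% of all probes were lower), 2 higher (*Tm7sf2* and *Stard4*) and 1 lower (*Fasn*) in wild type than in pTV (23.7% of all probes in either direction), and 5 higher in KTR than in pTV (*Fdps*, *Sqle*, *Tm7sf2*, *Nsdhl* and *Ebp*; 14.6% of all probes were higher). Between KTR and wild type the count stayed at 0 (1.14% of all probes). For K314/315R the number marks no shared slide. There the block called 3 of 30 against wild type, with *Fads1* added (10.7% of all probes), and 7 of 30 against pTV, with *Fads1* added as higher and *Acaca* and *Fasn* as lower (39.9% of all probes).

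**Figure D2:**
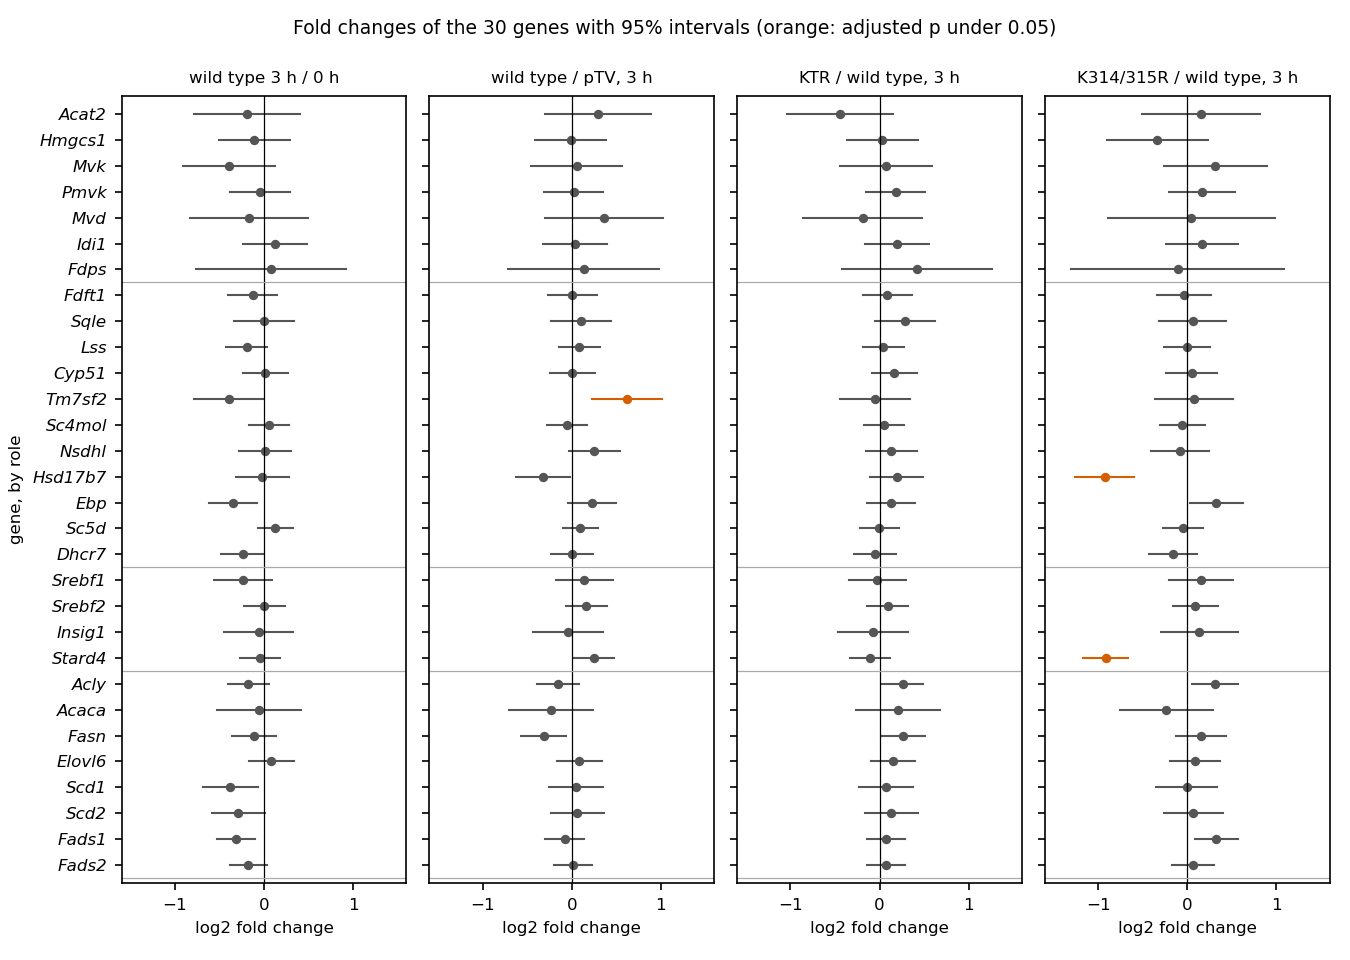
Log2 fold change (point) and its 95% interval (line) for each gene in 4 comparisons, from the fit without a block; orange marks an adjusted p under 0.05. *Tm7sf2* is called between wild type and pTV, *Hsd17b7* and *Stard4* between K314/315R and wild type, and in the other 2 panels no gene is called.

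The first 7 genes make the building blocks of cholesterol: *Acat2* and *Hmgcs1* join acetyl-CoA units, *Mvk*, *Pmvk* and *Mvd* turn mevalonate into the first isoprene unit, and *Idi1* and *Fdps* isomerise and join these units. None of the 7 was called in any of the 6 comparisons without the block. Their median log2 fold change was -0.11 after TNFα and 0.05 between wild type and pTV, beside -0.04 and -0.03 over all tested probes. It was 0.08 for KTR over wild type and 0.16 for K314/315R over wild type, beside 0.06 and 0.02 over all probes. *Fdps*, which makes farnesyl diphosphate, was at 7.15, 6.24 and 6.52 on the wild type arrays at 3 h, at 7.41, 6.59 and 7.17 in KTR and at 7.32, 6.18 and 6.02 in pTV. Its first replicate was the highest in all of these groups, and the groups overlapped. *Fdps* was called higher in KTR than in pTV with the block (adjusted p 0.0462), but not with the slide as a random block (adjusted p 0.124). *Hmgcs1*, whose promoter is printed above, was at 5.70, 6.02 and 6.05 in wild type at 3 h, at 5.64, 5.93 and 6.24 in pTV and at 5.64, 6.23 and 5.99 in KTR, with a wild type over pTV log2 fold change of -0.01. *Hmgcs1* and *Fdps* had no value on the second K314/315R array and *Mvd* none on the first, because the spot was marked as an outlier, so these 3 genes rest on a single array there. *Mvk* was lower after TNFα by 0.36, 0.29 and 0.53 on slides 1, 2 and 3, and it was called only with the replicate block (log2 fold change -0.39, adjusted p 0.453 in limma without the block and 0.0418 with it).

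The 11 enzymes from squalene to cholesterol held 3 of the 4 genes called anywhere. *Tm7sf2*, a sterol reductase that acts right after *Cyp51*, was at 2.42, 1.95 and 2.26 in wild type at 3 h and at 1.68, 1.37 and 1.72 in pTV. All 3 pTV arrays lay below every array of the other groups: 2.09, 1.97 and 2.41 in KTR, 2.02 and 2.55 in K314/315R, and 2.66, 2.39 and 2.76 in untreated wild type cells. Wild type exceeded pTV by 0.62 on the log2 scale (SE 0.18, 1.53-fold, adjusted p 0.0382 in limma), and by 0.73, 0.58 and 0.54 on slides 1, 2 and 3. K314/315R exceeded pTV by 0.70 (SE 0.20, adjusted p 0.0247). KTR exceeded pTV by 0.57 (SE 0.18), which missed the threshold without the block (adjusted p 0.0543) and passed it with the block (adjusted p 0.0276). *Tm7sf2* was also lower after TNFα than before by 0.40, and this did not pass (adjusted p 0.287). The wild type call was lost when any 1 of wild type replicates 1 and 3 at 3 h, the 3 pTV arrays or wild type replicate 1 at 0 h was left out (adjusted p 0.156, 0.108, 0.0613, 0.151, 0.056 and 0.0533), while the log2 fold change stayed between 0.51 and 0.68. It was also lost without the filter on dim probes (adjusted p 0.0926) and with normexp background correction (adjusted p 0.82), and the K314/315R call was lost without K314/315R replicate 2 (adjusted p 0.235) or pTV replicate 2 (adjusted p 0.0854).

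*Ebp*, the isomerase that shifts a bond in the sterol ring some steps later, followed a like order. Its levels were 4.69, 4.43 and 4.41 in wild type at 3 h, 4.39, 4.24 and 4.21 in pTV, 4.72, 4.48 and 4.72 in KTR, 4.76 and 4.91 in K314/315R, and 5.05, 4.68 and 4.84 in untreated wild type cells. The pTV arrays were again the lowest group without overlap. K314/315R exceeded pTV by 0.56 (SE 0.14, 1.47-fold, adjusted p 0.0111), a call that was lost without K314/315R replicate 2 (adjusted p 0.09). KTR exceeded pTV by 0.36 (adjusted p 0.0694, and 0.0274 with the block) and wild type exceeded pTV by 0.23 (adjusted p 0.269). After TNFα *Ebp* was lower by 0.35 (adjusted p 0.155, and 0.0588 with the block). This difference passed with the slide as a random block (adjusted p 0.0285). Between pTV and wild type, 6 of the 30 genes were higher in wild type without overlap (*Tm7sf2*, *Nsdhl*, *Ebp*, *Sc5d*, *Srebf2* and *Stard4*), where 16.2% of all probes were.

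**Figure D3:**
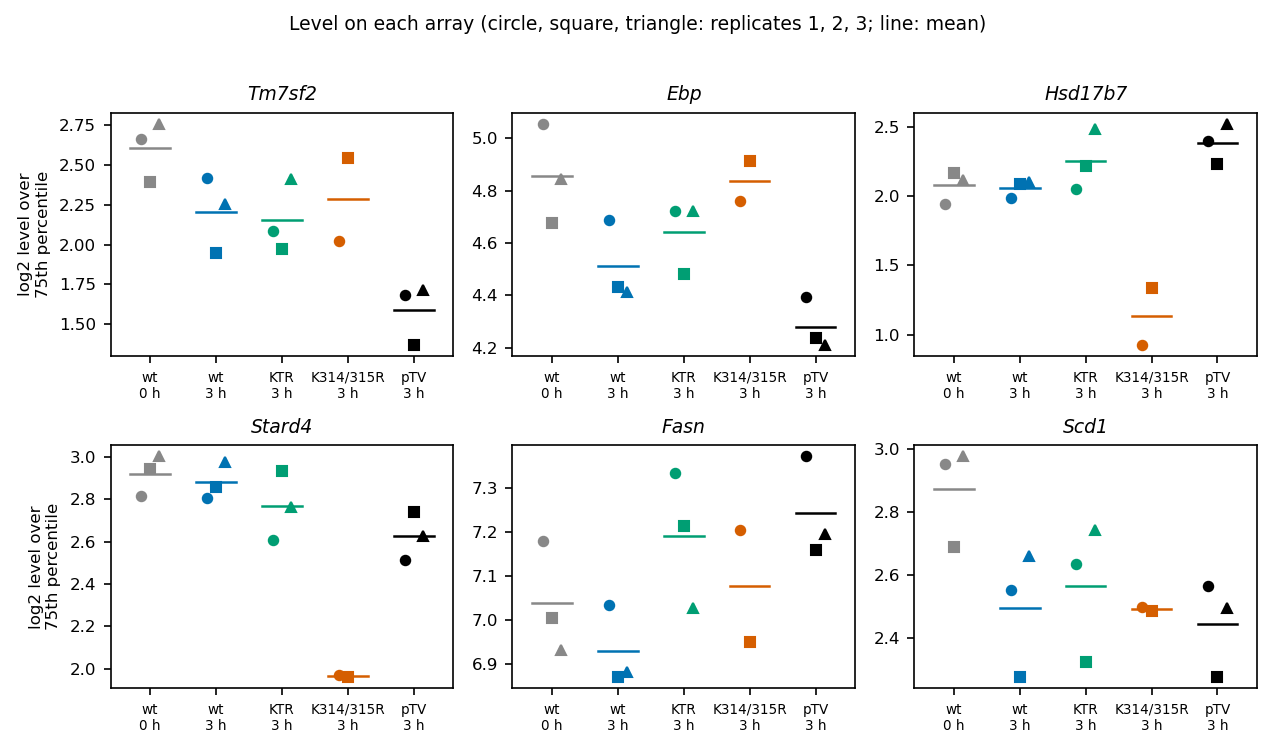
Level (log2 signal over the array's 75th percentile, y axis) of 6 genes on every array; circles, squares and triangles are replicates 1, 2 and 3, and lines are group means. *Tm7sf2* and *Ebp* are lowest in pTV, *Hsd17b7* and *Stard4* are lowest in K314/315R, *Fasn* is lower in wild type at 3 h than in pTV, and *Scd1* is lower at 3 h than at 0 h in wild type cells.

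*Nsdhl*, a dehydrogenase that helps to strip methyl groups from the ring, was at 2.11, 1.96 and 1.94 in pTV and at 2.37, 2.30 and 2.51 in KTR, without overlap. Its difference was 0.39 (SE 0.13, adjusted p 0.0723, and 0.0252 with the block). *Sqle*, the squalene epoxidase and a rate-controlling step, was 0.39 higher in KTR than in pTV (adjusted p 0.115, and 0.0234 with the block), but the groups overlapped, with 4.85, 4.71 and 5.16 against 4.78, 4.30 and 4.46. The other 6 enzymes of this stretch that were not called in either fit, *Fdft1*, *Lss*, *Cyp51*, *Sc4mol*, *Sc5d* and *Dhcr7*, had log2 fold changes between -0.24 and 0.17 in the 6 comparisons. *Sc4mol*, the methylsterol oxidase, is an example: it was at 6.89, 6.77 and 6.83 in wild type at 3 h, and its range over all 14 arrays was 6.66 to 7.06.

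*Hsd17b7*, the reductase that completes removal of a methyl group together with *Sc4mol* and *Nsdhl*, was low in K314/315R. Its levels there were 0.92 and 1.34, while all 12 other arrays lay between 1.94 and 2.52. They were 1.99, 2.09 and 2.10 in wild type at 3 h, 2.05, 2.22 and 2.48 in KTR and 2.40, 2.23 and 2.52 in pTV. K314/315R was lower than wild type by 0.93 on the log2 scale (log2 fold change -0.93, 95% interval -1.26 to -0.59, adjusted p 0.0191) and lower than pTV by 1.25 (log2 fold change -1.25, SE 0.15, adjusted p 0.000131). Wild type was lower than pTV too, without overlap but short of the threshold (log2 fold change -0.32, adjusted p 0.156). *Stard4*, a carrier that moves sterols between membranes in the cytosol, was low in K314/315R as well. Its levels were 1.97 and 1.96 in K314/315R, and the 12 other arrays lay between 2.51 and 3.00. The log2 fold change was -0.92 over wild type (95% interval -1.17 to -0.66, adjusted p 0.00839) and -0.66 over pTV (SE 0.12, adjusted p 0.00146). *Stard4* was called higher in wild type than in pTV only with the block (log2 fold change 0.25, adjusted p 0.137 without it and 0.0442 with it).

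Both genes also differed between the mutants themselves, in a comparison added after the values had been seen. K314/315R was below KTR by 1.12 for *Hsd17b7* (log2 difference -1.12, adjusted p 0.00586) and by 0.80 for *Stard4* (log2 difference -0.80, adjusted p 0.00665). These were 2 of 30 genes called lower, with 0 called higher, where 3.99% of all probes were called lower.

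The other probes of *Hsd17b7* and *Stard4* showed no drop of that size. The second *Hsd17b7* probe, filed under the same transcript, was at 1.54 and 0.92 in K314/315R and at 1.43, 0.96 and 1.28 in wild type at 3 h, which left a log2 fold change of 0.00 between them, with an adjusted p of 0.995. The other *Stard4* probes changed by -0.30 and -0.15 (adjusted p 0.616 and 0.603), and their groups overlapped. With the mean over all probes of a gene in place of the brightest, neither gene was called against wild type (log2 fold changes -0.46 and -0.46, adjusted p 0.074 and 0.143). Probes of 1 gene often differed in comparisons with K314/315R: for K314/315R over wild type they were more than 0.5 apart in 4 of 17 genes with several probes (*Acaca*, *Fdft1*, *Hsd17b7* and *Stard4*) and in 20% of all genes with several probes, against 0 of 17 and 7.93% for KTR over wild type. Mutant, slide 4 and its software release cannot be told apart here. *Hsd17b7* was no longer called against wild type without K314/315R replicate 1 (adjusted p 0.0851), without wild type replicate 2 at 3 h (adjusted p 0.0629) or with the slide as a random block (adjusted p 0.0536), and *Stard4* without K314/315R replicate 2 (adjusted p 0.0584).

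**Figure D4:**
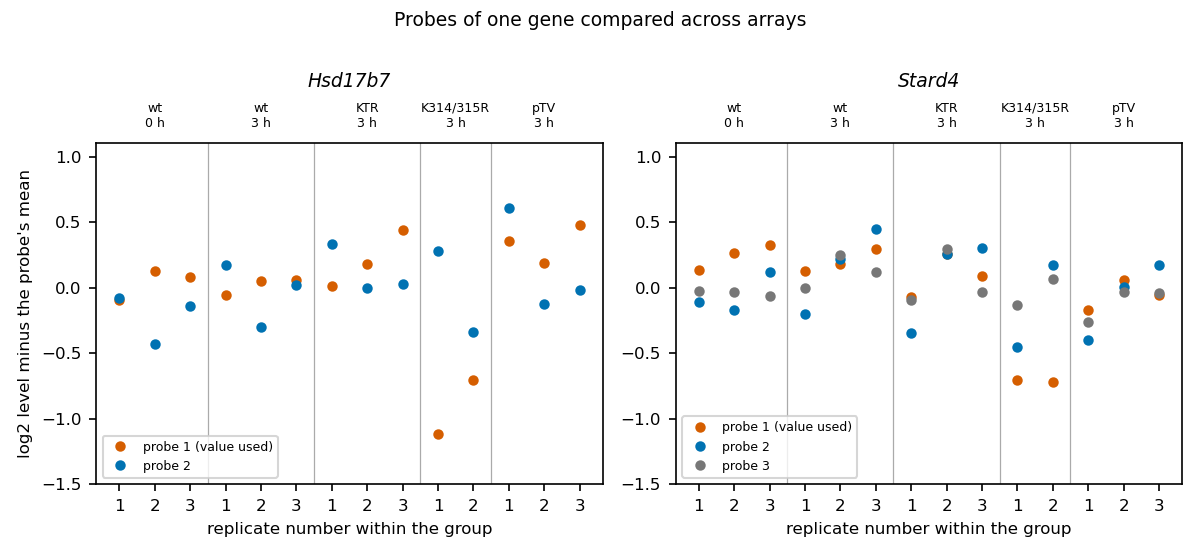
Log2 level minus the probe's own mean (y axis) for each probe of *Hsd17b7* and *Stard4* on the 14 arrays (x axis, by group and replicate number); orange is the probe whose value is used. The orange points fall in K314/315R, while the other probes of the same gene are, except 1 *Stard4* probe on the first K314/315R array, within the range that the same probe has in the other groups.

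None of the 3 regulators named next was called in any comparison without a block or with the replicate block. *Srebf2*, which encodes the SREBP form tied mainly to cholesterol genes, was at 6.17 and 5.93 in wild type at 3 h (1 array had no value), 6.07, 6.15 and 6.21 in KTR, 6.08 and 6.21 in K314/315R, and 5.87, 5.87 and 5.93 in pTV. The pTV arrays were the lowest, 0.26 below KTR (adjusted p 0.097) and 0.26 below K314/315R (adjusted p 0.0958), and neither passed. With the slide as a random block the difference from KTR passed (adjusted p 0.0437) and that from K314/315R did not (adjusted p 0.191). *Srebf1*, tied mainly to fatty acid genes, was at 4.10, 4.12 and 4.19 in wild type at 3 h and at 4.37, 4.35 and 4.40 at 0 h. These groups did not overlap, but the adjusted p was 0.483 at a log2 fold change of -0.23, and the fit pools the spread over all groups, including pTV with 3.59, 4.13 and 4.26. *Insig1*, an SREBP target whose product keeps SREBP in the endoplasmic reticulum, was at -0.16, -0.30 and 0.01 in wild type at 3 h and at 0.00, -0.22 and -0.10 in pTV. Its 95% interval for wild type over pTV was -0.44 to 0.35, so that changes within it were not excluded by these arrays.

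The 8 genes of fatty acid synthesis supply acetyl-CoA (*Acly*), build the chain (*Acaca*, *Fasn*), lengthen it (*Elovl6*) and put in bonds (*Scd1*, *Scd2*, *Fads1*, *Fads2*). None was called in any of the 6 comparisons without the block. *Scd1*, a main stearoyl-CoA desaturase, was at 2.95, 2.69 and 2.98 in untreated wild type cells and at 2.55, 2.27 and 2.66 after TNFα, without overlap. It was lower by 0.40, 0.41 and 0.32 on slides 1, 2 and 3. The log2 fold change of -0.38 did not pass without the block (adjusted p 0.177) and passed with it (adjusted p 0.0146). *Fads1*, a desaturase of polyunsaturated fatty acids, was at 2.27, 2.06 and 2.19 before and at 1.89, 1.79 and 1.90 after TNFα, again without overlap (log2 fold change -0.32, adjusted p 0.104, and 0.0293 with the block). *Scd2* was at 7.45, 7.07 and 7.29 before and at 7.20, 6.75 and 7.00 after, with overlap (log2 fold change -0.29, adjusted p 0.313). Of the 8 genes 7 had a log2 fold change below 0 after TNFα, as did 56.6% of all probes, with a median of -0.18. Over all 30 genes, 4 were lower after TNFα without overlap (*Lss*, *Srebf1*, *Scd1* and *Fads1*), where 17% of all probes were.

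*Fasn*, the fatty acid synthase, was at 7.03, 6.87 and 6.88 in wild type at 3 h and at 7.37, 7.16 and 7.20 in pTV. Wild type was lower by 0.34, 0.29 and 0.32 on slides 1, 2 and 3 (log2 fold change -0.32, adjusted p 0.095, and 0.00649 with the block). In KTR *Fasn* was at 7.33, 7.21 and 7.03, which overlapped with wild type. KTR over wild type had a positive log2 fold change for all 8 genes, from 0.07 to 0.26, as did 63.4% of all probes. The largest were *Fasn* and *Acly*, both at 0.26 (adjusted p 0.514 and 0.477). *Acly* was at 2.81, 2.56 and 2.83 in KTR, 2.74 and 2.82 in K314/315R and 2.61, 2.37 and 2.43 in wild type at 3 h, and its difference between K314/315R and wild type was 0.31 (adjusted p 0.204). *Fads1* in K314/315R was at 2.15 and 2.22, above all wild type arrays at 3 h (log2 fold change 0.33, adjusted p 0.15, and 0.36 with adjusted p 0.0317 with the block).

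In many of the 30 genes arrays differed more between slides than between groups. On slides 1 to 3 the slide number is also the replicate number. Slide and day of isolation therefore cannot be told apart here. Over the 12 arrays of slides 1 to 3, 28 of the genes had all values. A difference between slides was called (adjusted p under 0.05 in limma) for 14 of the 28 (50%) and for 34.3% of all probes. The slide took a larger part of the sum of squares than the group for 13 of the 28 (46.4%) and for 35.2% of all probes. Slide 1 had the highest mean for 20 of the 28 (71.4%) and for 33.3% of all probes. For *Fdps* the slide means spanned 0.97 and the group means 0.55. For *Mvk* they spanned 0.56 and 0.45, and for *Acaca* 0.49 and 0.23. Of the mevalonate enzymes *Hmgcs1* ran against the others, with its lowest mean on slide 1. For *Tm7sf2*, in contrast, the group means spanned 1.02 and the slide means 0.36.

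Further genes of the SREBP pathway, from a list of 20, gave few calls as well. Of the 18 that were tested, 0 were called in the first 5 comparisons (0.235% to 15.2% of all probes) and 1 in K314/315R over pTV (26% of all probes), *Slc25a1*, which exports citrate from mitochondria (2.46 and 2.33 against 2.02, 1.63 and 1.86, log2 fold change 0.56, adjusted p 0.034). Without adjustment, 3, 1, 0, 1 and 3 of the 18 had a p under 0.05 after TNFα, in wild type over pTV, KTR over wild type, K314/315R over wild type and KTR over pTV, where 17%, 26.3%, 9.19%, 17.4% and 27.9% of all probes had one. With the replicate block 2, 1, 0, 2 and 3 were called in these comparisons (10.6%, 23.7%, 1.14%, 10.7% and 25% of all probes) and 4 in K314/315R over pTV (39.9% of all probes).

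A list of 11 genes of cholesterol export, intracellular trafficking and the LXR receptors, which sense oxidised sterols, differed more from pTV. Of its 10 tested genes, 6 were higher and 1 lower in wild type than in pTV (8.03% and 6.79% of all probes). *Ch25h*, which makes an oxysterol that holds back SREBP, was at 4.08, 3.60 and 3.35 in wild type at 3 h, at 2.54, 2.19 and 1.81 at 0 h, and was not well above background on any pTV array. Relative to pTV it was at least 346-fold higher in wild type (adjusted p 6.1e-10), at least 404-fold higher in KTR and at least 484-fold higher in K314/315R, measured against the dimmest probes well above background, and it rose by 1.49 over 3 h of TNFα (adjusted p 0.0064). *Abcg1* and *Abca1*, transporters that export cholesterol, were higher in wild type than in pTV by 2.41 and 1.11, and *Mylip*, a target of the LXR receptors, by 1.14 (adjusted p 3.1e-06, 0.000289 and 0.000501). The other called genes, *Npc1* and *Npc2* (higher) and *Apoe* (lower), were named after their values had been seen. In KTR over wild type and K314/315R over wild type 0 of the 10 were called (0.235% and 2.23% of all probes), with 2 and 0 at an unadjusted p under 0.05 (9.19% and 17.4% of all probes). So few calls over all probes leave the 0 of 10 without weight.

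**Figure D5:**
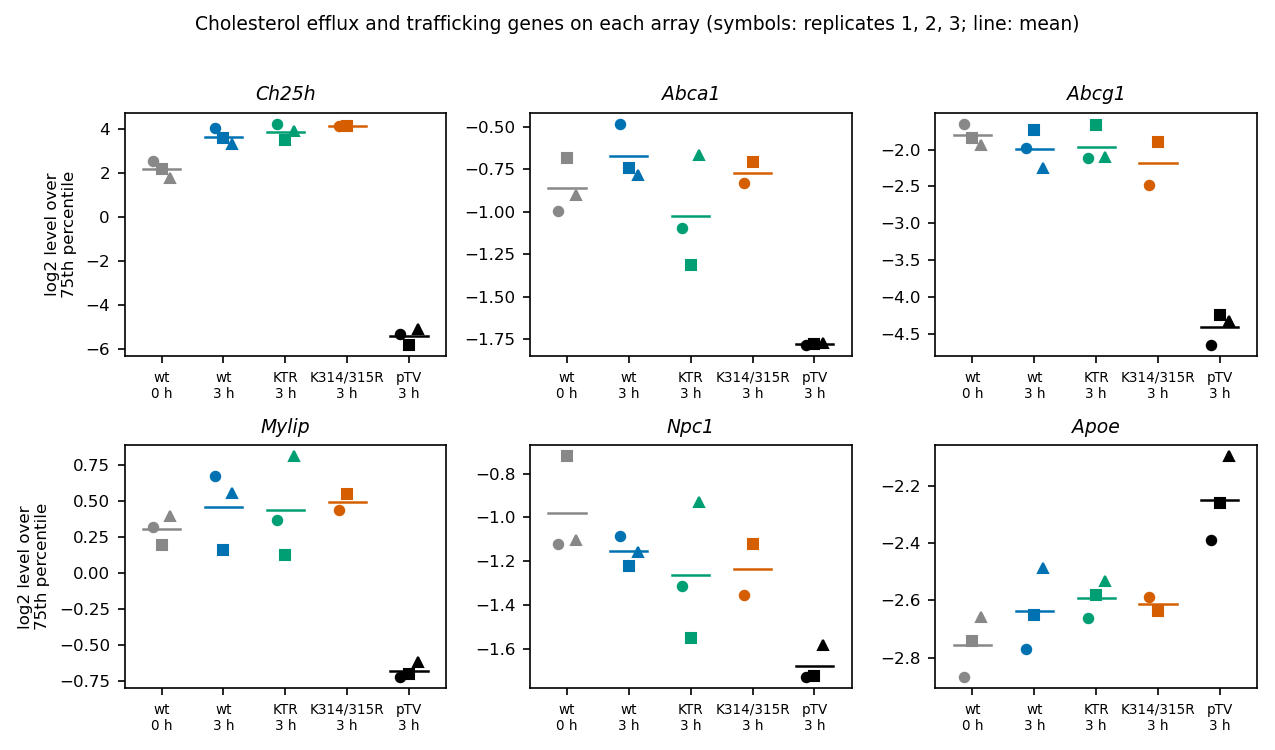
Level (log2 signal over the array's 75th percentile, y axis) of 6 cholesterol export and trafficking genes on every array; circles, squares and triangles are replicates 1, 2 and 3, and lines are group means. The 3 pTV arrays lie below all others for the first 5 genes, and above all others for *Apoe*; for *Ch25h* they are not well above background.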

How the data were processed

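Total RNA of 14 cultures was labelled with Cy3 and hybridised to 1-colour Agilent Whole Mouse Genome 4x44K arrays, 1 culture per array. Per the labels, Agilent Feature Extraction 9.1 was used (release 9.1.3.1 for the K314/315R arrays and 9.1.1.1 for the others, per the file headers), and the files used here are its scanner output, in which the deposited intensity of each spot (the processed signal) is background-subtracted by the authors' software and not normalized between arrays. The authors' value table, which was used as an alternative, equals these signals times 1 factor per array (0.837 to 1.2; within 1% for at least 99.7% of probes). The few arrays per group limit the precision, and the arrays held 43379 spots each.

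Spots marked as outliers and control spots were left out, spots of a probe were averaged, and log2 of the intensity minus the array's 75th percentile was taken. A probe was tested if every array of at least 1 group had it well above background (22166 of 41174). Contrasts of group means were fitted with limma 3.58.1 in R 4.3.3 on all 14 arrays, with two-sided p-values adjusted by Benjamini-Hochberg across the tested probes, after the code had been tested on simulated data; the study's own fold limit of 1.8 was counted beside it. limma stands in for the error model of the study's software. The 30 genes and all lists were chosen with earlier results of these data known. Results of a few genes are not reported here, and these genes were left out of the lists. Named genes were those called, at most 6 per comparison, filled to 3 with the lowest p, and *Srebf1*, *Srebf2*, *Insig1*, *Scd1* and *Scd2*; from the further lists, at most 4 called genes per comparison.

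Replicate numbers were checked for pairing. On slides 1 to 3 the 18 same-numbered pairs of arrays deviated together from their group means (r 0.308 to 0.613), and the 36 other pairs did not (r -0.51 to 0.0935), so the numbers pair these arrays, which share a slide. For K314/315R the 8 same-numbered pairs had r -0.101 to 0.409 and the 16 others -0.414 to 0.414. Alternatives were quantile normalization, normexp (offset 50), other filters, the authors' table, other fits and leaving out each array.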

Additional observations from a re-analysis of the deposited data

Results flagged for a closer look

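*Hsd17b7* and *Stard4* are listed because the effect of K314/315R relative to wild type differed from that of KTR relative to wild type, by a test of the difference between the mutants. The log2 difference of K314/315R from KTR was -1.12 for *Hsd17b7*, with levels of 1.13 and 2.25 in the 2 groups, and -0.80 for *Stard4*, with levels of 1.97 and 2.77. Both K314/315R arrays lay below all 3 KTR arrays in each gene, and the mutant and its slide cannot be told apart. Groups of 3 arrays or fewer were not searched for single arrays that stand apart.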

How the results depend on the processing

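For the 19 pairs of a gene and a comparison that were recomputed (each comparison's called genes, filled to 3 with the lowest p), no direction reversed under any alternative; the other named genes were not recomputed. As a count of the 30 genes called, the values moved as follows, in the order wild type 3 h over 0 h, wild type over pTV, KTR over wild type, K314/315R over wild type, KTR over pTV and K314/315R over pTV, which were 0, 1, 0, 2, 0 and 4. With the replicate number as a block, for the paired arrays, the counts were 3, 3, 0, 3, 5 and 7, and where slide entered as a random effect they were 3, 3, 0, 1, 5 and 4. At an unadjusted p under 0.05 they were 4, 4, 2, 5, 5 and 6, and at an adjusted p under 0.05 and past 1.8-fold 0, 0, 0, 2, 0 and 1. With normexp background correction all were 0, where 23, 386, 1, 0, 451 and 535 of all probes were called. Without the filter on dim probes they were 0, 0, 0, 1, 0 and 3, and over all probes KTR over wild type then had 7816 called higher and 373 lower, beside 13 and 39 with the filter. With the test limited to probes above background on all 14 arrays they were 0, 1, 0, 2, 1 and 4, with the mean over a gene's probes 0, 1, 0, 0, 1 and 5, and with only the 2 groups compared in the fit 0, 1, 0, 0, 0 and 3. Quantile normalization and the authors' table left the counts as they were. Leaving out each array in turn gave 0 to 0, 0 to 1, 0 to 0, 1 to 2, 0 to 2 and 3 to 4. With normexp the median log2 fold change of the 30 genes moved from -0.11 to -0.39 after TNFα and from 0.08 to 0.35 in KTR over wild type, while that of all probes was 0.07 and -0.04; the cause was not tested. Without the filter on dim probes the median of all probes was -0.13 after TNFα, -0.15 in wild type over pTV and 0.15 in KTR over wild type and in KTR over pTV. Array number limits the precision, and the values of K314/315R rest on 2 arrays of a single slide.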
